A study of Mus musculus with 16 samples.

Results

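Of the 54347 genes in the deposited table, 43 were taken as autophagy and lysosome genes by their symbols, and 41 of these had enough counts to be tested. The choice covers initiation of autophagy (5 genes), membrane supply and conjugation (9), the Atg8 family (5), cargo receptors (3), mitophagy (4), the MiT/TFE transcription factors (3), lysosomal membrane proteins (3), cathepsins (7) and 4 other lysosomal genes. They were measured in wt1-SAM cells, immortalized preadipocytes from mouse brown fat with a stably integrated CRISPRa SAM system, which activates transcription at a gene chosen by a guide RNA. All cells were differentiated with a hormone cocktail that contained rosiglitazone, received 250 ng of plasmid by reverse transfection on day 4, and were harvested on day 7. The plasmid was either the empty sgRNA vector or the pair pSgRNA-MS2-2+7, which per the study carries guides against the long noncoding RNA *Gm15551*. The treatment was either none (ctrl) or 1 µM isoproterenol, a β-adrenergic agonist, for the last 24 h (iso). Each of the 4 groups held 4 libraries of polyadenylated RNA, numbered as replicates 3, 4, 5 and 6. The labels give 1 cell line and do not say whether the numbers mark separate cultures, so p-values measure the spread between these libraries, which may be technical.

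Autophagy delivers cytoplasm and organelles to the lysosome. The ULK kinases and the Beclin lipid kinase complex start a membrane, a pair of ubiquitin-like reactions couples Atg8 proteins to its lipid, receptors bring in cargo, and the closed vesicle fuses with a lysosome in which cathepsins, glycosidases and lipases digest the content. TFEB and its relatives TFE3 and MITF bind E-box letters in the promoters of many lysosomal genes, and in brown fat autophagy is best known for clearing mitochondria and for delivering lipid to lysosomal acid lipase.

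Total estimated counts ran from 9053521 to 16546187 per library. A single ribosomal RNA gene took 11.7 to 51.8% of them, so that 5900607 to 12959314 counts were left for all other genes, of which the 43 genes held 0.546 to 0.709%. The share of this gene was higher with the empty vector (19.7 to 51.8%) than with the sgRNA plasmids (11.7 to 28.7%) in 8 of 8 pairs, and it was highest in the 2 empty vector libraries of replicate 5. *Gm15551* with the empty vector was at 1.08, 0.985, 0.390 and 1.35 CPM in the controls and at 0, 0.166, 0 and 0.421 CPM after isoproterenol. *Gm15551* with the sgRNA plasmids was at 3.92, 3.19, 1.42 and 3.34 CPM in the controls and at 2.04, 1.47, 1.04 and 1.69 CPM after isoproterenol. These values are in the order of replicates 3, 4, 5 and 6. *Gm15551* was higher with the sgRNA plasmids by 2.37 ± 0.39 (log2, SE), in 8 of 8 library pairs, and passed the edgeR test with the replicate number in the model (adjusted p = 5.50e-04) but not without it (adjusted p = 0.0989), and it fell with isoproterenol by 1.69 on the log2 scale (adjusted p = 0.0214). *Ucp1*, the thermogenic uncoupling protein, rose by 4.03 ± 0.37 with isoproterenol (adjusted p = 7.36e-06). All 8 adipocyte markers were present, with a summed level of 12498 to 27203 CPM per library, where CPM are counts scaled to one common library total. Libraries with the same replicate number deviated together (correlation of deviations from the group means 0.224 to 0.613), so results of a model with the replicate number as a block are given beside those without it.

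The promoters are shown first because the E-box CACGTG, its extended form TCACGTG and the palindrome TCACGTGA are the letters that TFEB and its relatives recognise. RefSeq promoter windows of build GRCm38.p6, 250 bases before and 50 bases after a transcription start, were at hand for 37 of the 43 genes, with 44 windows in all. CACGTG, searched on both strands, stood in 10 of the 44 windows (22.7%), against 7.15% of all 32851 windows of the table. TCACGTG, which contains the E-box, stood in 7 of the 44 windows (15.9%, all windows 3.77%), and TCACGTGA in those of *Atg3*, *Ctsa*, *Ctsd* and *Mcoln1* (9.09%, all windows 0.974%). TGACG, the core letters of the cyclic AMP response element, stood in 20.5% of the members' windows and 20.8% of all windows, and its palindrome TGACGTCA, which contains those letters, in 2 of the 44 windows (*Atg5* and *Mitf*, 4.55%, all windows 1.79%). These matches describe letters in short windows and are not binding sites. In the sequences printed here capitals mark CACGTG with a T before it or an A after it where those letters are present, and each sequence reads 5′ to 3′ on the strand of its gene. The following stretches of the promoters of *Mcoln1* (chr8:3500429-3500498, plus strand), *Lamp1* (chr8:13159086-13159160, plus strand), *Ctsd* (chr7:142387888-142387947, minus strand) and *Ctsa* (chr2:164833713-164833772, plus strand) were chosen for their dense or palindromic E-boxes, of which that of *Lamp1* held 4.
Mcoln1: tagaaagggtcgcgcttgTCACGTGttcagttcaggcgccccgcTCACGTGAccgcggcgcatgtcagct
Lamp1: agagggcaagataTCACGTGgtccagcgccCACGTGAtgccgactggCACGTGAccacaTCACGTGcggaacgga
Ctsd: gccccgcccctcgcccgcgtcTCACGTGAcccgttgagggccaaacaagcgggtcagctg
Ctsa: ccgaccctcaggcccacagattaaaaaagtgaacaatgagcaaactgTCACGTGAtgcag

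The next sequences are the 250 bases before the start of *Lipa* (chr19:34527475-34527724, minus strand), *Ctsl* (chr13:64370521-64370770, minus strand), *Hexa* (chr9:59539290-59539539, plus strand) and *Atg3* (chr16:45158579-45158828, plus strand), shown because the first 3 are the genes that passed the isoproterenol test in both models and *Atg3* is the palindrome-bearing gene that passed in 1 of them. *Lipa* and *Hexa* hold no CACGTG in this stretch. *Ctsl* holds 1 copy, at position -236 from the start, and *Atg3* holds 2, at -94 and -71. The RefSeq starts of *Ctsl*, *Ctsd*, *Ctsa*, *Mcoln1* and *Atg3* lie inside the genes as drawn by GENCODE. The printed stretches of *Ctsl*, *Ctsd* and *Ctsa* lie wholly inside those genes, and those of *Mcoln1* and *Atg3* in part.
Lipa: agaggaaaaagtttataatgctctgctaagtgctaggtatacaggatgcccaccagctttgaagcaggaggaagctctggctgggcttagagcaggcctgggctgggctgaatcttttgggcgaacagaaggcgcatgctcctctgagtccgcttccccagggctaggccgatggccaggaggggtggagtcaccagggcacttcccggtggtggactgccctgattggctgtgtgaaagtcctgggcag
Ctsl: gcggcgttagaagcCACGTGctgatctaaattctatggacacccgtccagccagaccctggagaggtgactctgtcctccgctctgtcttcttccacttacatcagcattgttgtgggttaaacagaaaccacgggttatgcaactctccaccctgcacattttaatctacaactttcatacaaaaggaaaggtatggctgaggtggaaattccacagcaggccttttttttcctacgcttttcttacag
Hexa: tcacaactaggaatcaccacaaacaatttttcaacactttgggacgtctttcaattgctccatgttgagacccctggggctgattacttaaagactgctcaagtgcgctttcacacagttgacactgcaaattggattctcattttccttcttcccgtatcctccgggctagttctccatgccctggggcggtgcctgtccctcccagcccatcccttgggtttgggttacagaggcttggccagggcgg
Atg3: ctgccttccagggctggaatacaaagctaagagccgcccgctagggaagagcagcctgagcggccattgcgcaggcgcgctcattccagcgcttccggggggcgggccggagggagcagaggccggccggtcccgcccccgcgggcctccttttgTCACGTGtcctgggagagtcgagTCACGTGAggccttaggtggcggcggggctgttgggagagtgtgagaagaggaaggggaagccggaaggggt

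Levels were compared between genes as CPM per kb of exon. The order began with *Bnip3* (273 ± 83.0 CPM per kb, mean ± SD, n = 16), a mitochondrial outer membrane protein that recruits the autophagy membrane, *Lamp1* (188 ± 17.8), a main glycoprotein of the lysosomal membrane, and *Ctsd* (151 ± 26.9), the aspartic protease cathepsin D. *Gabarap* (84.8 ± 8.48), *Sqstm1* (82.9 ± 17.5) and *Ctsb* (82.4 ± 5.42) followed and did not differ beyond their spread, and neither did *Bnip3l* (63.1 ± 8.43) and *Ctsz* (61.5 ± 16.3) after them. The MiT/TFE factors were near the bottom, with *Tfe3* at 1.99 ± 0.217, *Tfeb* at 1.502 ± 0.363 and *Mitf* at 0.785 ± 0.220 CPM per kb. Only the cathepsins *Ctsk* and *Ctss*, proteases best known from osteoclasts and antigen-presenting cells, were lower. *Ctsk* had 1 to 16 counts per library and *Ctss* 0 to 5, with 2 libraries at 0, where a count of 0 allows up to 3 counts, and neither was tested. The exon length counts every annotated exon, so a gene with a long, little used exon appears lower than it is per transcript.

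**Figure D1:**
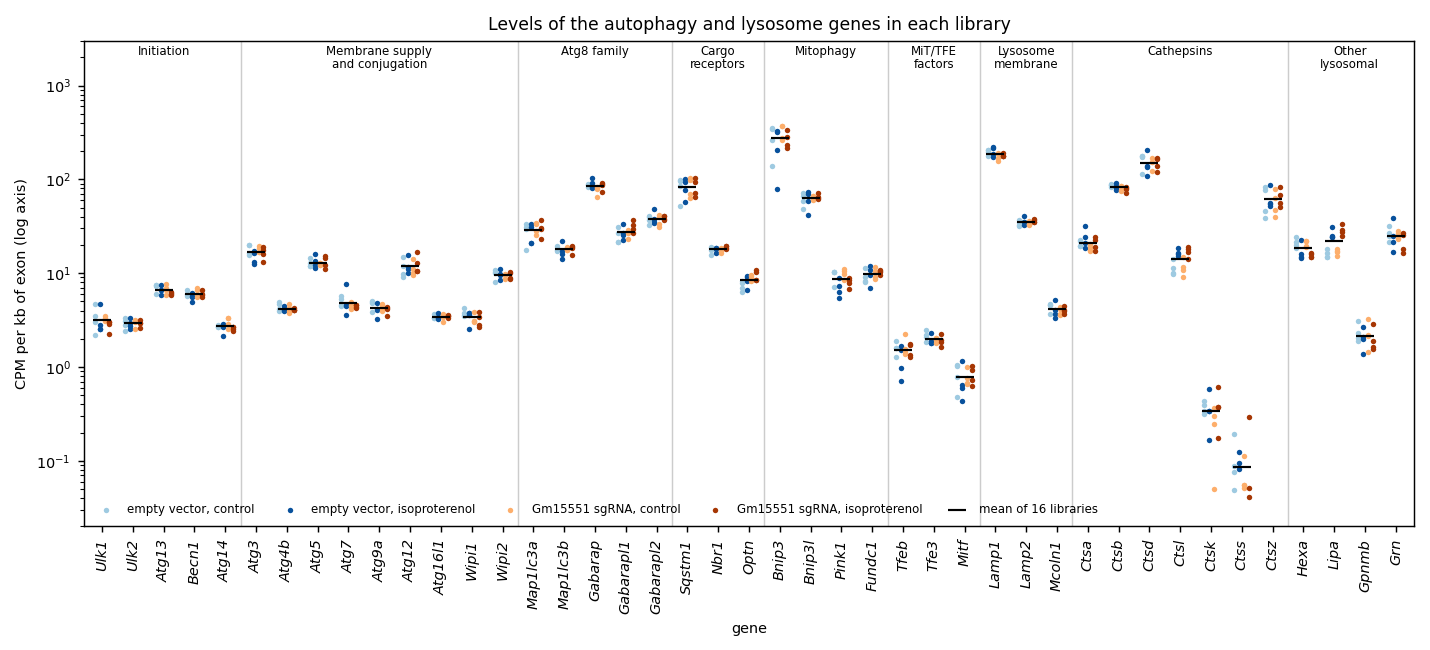
Each point is 1 library, with the gene on the horizontal axis in order of role, the level in CPM per kb of exon on a logarithmic vertical axis, the colour giving plasmid and treatment, and the black bar the mean of 16 libraries. Libraries with a count of 0 (2 for Ctss) have no point, and the genes span from 273 CPM per kb for Bnip3 to less than 1 for Mitf, Ctsk and Ctss.

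Few of the genes passed for isoproterenol, at shares near those of all genes. Lysosomal acid lipase (*Lipa*) and cathepsin L (*Ctsl*) rose and the β-hexosaminidase subunit *Hexa* fell. No chosen gene of autophagosome formation passed unless the replicate number was in the model. *Vmp1*, among the other autophagy genes examined below, passed in both models. Averaged over both plasmids, 3 of the 41 genes tested passed at an adjusted p under 0.05 (7.32%), against 4.49% of all 13150 genes tested. The 2 that rose compare with 2.06% of all genes and the 1 that fell with 2.43%. With the replicate number as a block, 7 of the 41 passed (17.1%), against 21.3% of all genes: *Lipa*, *Ctsl*, *Gabarapl1* and *Atg12* rose (10.9% of all genes did) and *Hexa*, *Pink1* and *Atg3* fell (10.4% of all genes did). At an unadjusted p under 0.05 there were 5 of the 41 genes without (12.2%, all genes 17.7%) and 8 with the block (19.5%, all genes 33.5%). The median log2 fold change of the 41 genes was -0.03, against 0.00466 for all genes, and 17 of the 41 were positive. The 95% interval lay within ±0.5 log2 for 32 of the 41 genes (57.9% of all genes), and for 35 with the block (69.0% of all genes). In bulk RNA, fewer cells of a type and less RNA per cell cannot be told apart.

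**Figure D2:**
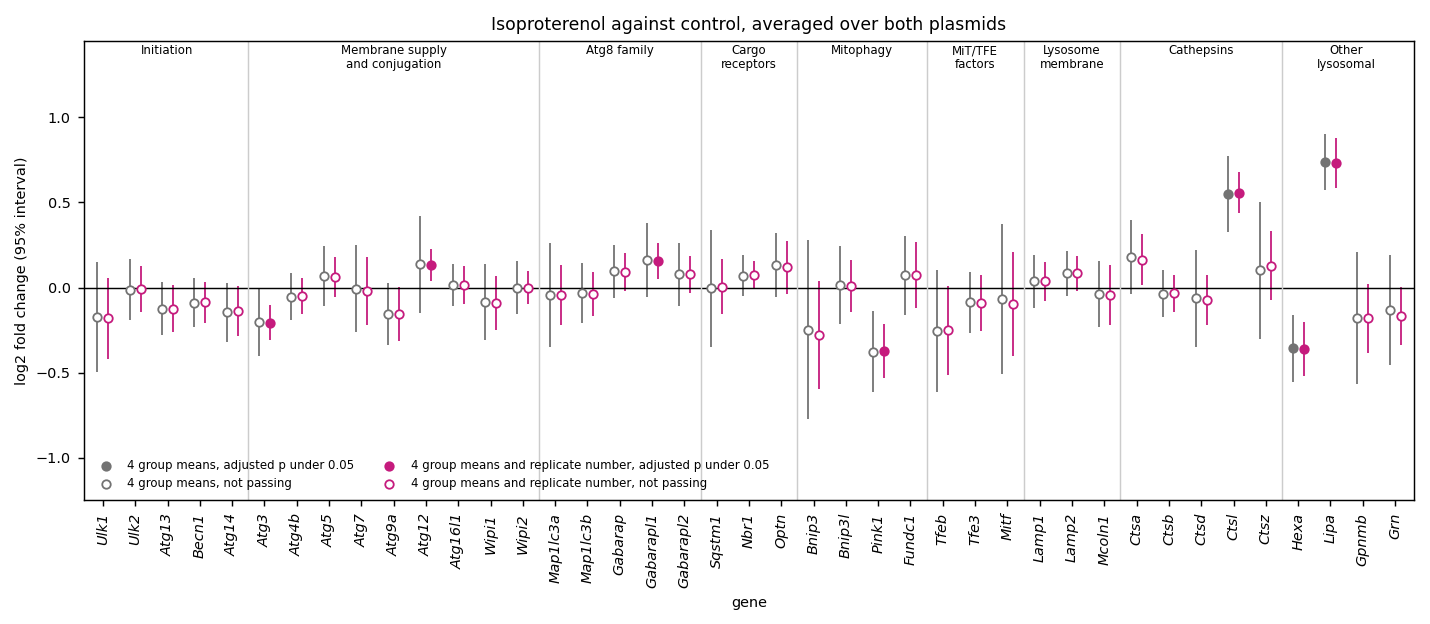
Log2 fold change by isoproterenol (vertical axis) of the 41 genes tested (horizontal axis, by role), with 95% intervals, in the model of 4 group means (grey) and in the one that adds the replicate number (pink). Filled points passed at an adjusted p under 0.05, and only Lipa and Ctsl lie above 0.5.

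In the accounts that follow, the 4 values of a group are given in the order of replicates 3, 4, 5 and 6, a fold change is the log2 difference averaged over both plasmids with its SE, and the adjusted p is that of the quasi-likelihood test of edgeR over all genes. The largest change was that of *Lipa* (GRCm38 chromosome 19, 34492318 to 34527474), the lysosomal acid lipase that hydrolyses cholesteryl esters and triglycerides inside the lysosome. *Lipa* with the empty vector was at 110.0, 102, 100.1 and 122 CPM in the controls and at 209.9, 164, 166 and 169 CPM after isoproterenol. *Lipa* with the sgRNA plasmids was at 103, 115, 122 and 118 CPM in the controls and at 196, 169.6, 226 and 188 CPM after isoproterenol. All 8 stimulated libraries were above all 8 controls, and 100.1 and 226 CPM were the extremes. How many of all genes separate in this way was not counted. The rise was 0.74 ± 0.08 (adjusted p = 2.86e-05; 1.72e-06 with the block), in 8 of 8 pairs. It was 0.71 ± 0.11 with the empty vector and 0.76 ± 0.11 with the sgRNA plasmids, and each of these passed by itself (adjusted p = 0.00341 and 0.00170). Treatment took 0.875 of the variance of its log2 level and the replicate number 0.0182.

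*Ctsl* (GRCm38 chromosome 13, 64359337 to 64370890) encodes cathepsin L, a cysteine protease of the lysosome. *Ctsl* with the empty vector was at 64.4, 73.2, 64.4 and 91.3 CPM in the controls and at 103, 99.9, 106 and 121 CPM after isoproterenol. *Ctsl* with the sgRNA plasmids was at 58.4, 75.1, 70.6 and 95.8 CPM in the controls and at 91.2, 108, 117 and 122 CPM after isoproterenol. Every stimulated library was above its own control, and with the empty vector the groups did not overlap, whereas with the sgRNA plasmids the lowest stimulated library (91.2 CPM) was below the highest control (95.8 CPM). The rise was 0.55 ± 0.10 (adjusted p = 0.00599; 4.13e-06 with the block), in 8 of 8 pairs. Without the block, *Ctsl* did not pass when replicate 4 or replicate 5 was left out in all groups (adjusted p up to 0.0713). Its exons overlap those of an antisense gene and of a processed pseudogene on the same strand. The exons of 16 more of the 43 genes overlap another gene, *Hexa* and *Pink1* among them. The use of strand was not stated, so reads of genes on opposite strands cannot be told apart. For overlaps on the same strand, as with the pseudogene, strand would not separate the reads. The other cathepsins tested did not pass in either model, though *Ctsz* passed as higher with the block when replicate 3 was left out. *Ctsa*, a carboxypeptidase that also protects glycosidases, was at 0.18 ± 0.10, *Ctsz* at 0.10 ± 0.19, *Ctsb* at -0.03 ± 0.06 and *Ctsd* at -0.06 ± 0.13. The estimate for *Ctsb*, with at least 4004 counts in every library, had a 95% interval of -0.17 to 0.10.

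*Hexa* (GRCm38 chromosome 9, 59539540 to 59565109), the α subunit of the enzyme that degrades GM2 ganglioside, moved the other way. *Hexa* with the empty vector was at 43.3, 39.4, 49.1 and 36.7 CPM in the controls and at 28.9, 32.3, 45.0 and 30.0 CPM after isoproterenol. *Hexa* with the sgRNA plasmids was at 43.5, 43.6, 38.3 and 39.1 CPM in the controls and at 29.6, 29.5, 32.8 and 32.1 CPM after isoproterenol. Each stimulated library was below its own control, and with the sgRNA plasmids the groups did not overlap, whereas with the empty vector the stimulated library of replicate 5 (45.0 CPM) lay among the controls. The fall was -0.36 ± 0.09 (adjusted p = 0.0364; 0.00274 with the block), in 8 of 8 pairs. Without the block the call was lost when replicate 3, 4 or 6 was left out in all groups (adjusted p up to 0.358) and in 12 of 16 fits that left out 1 library (up to 0.0842), and with the block it held in all 20 fits that left out a library or a number. *Gpnmb* (-0.18 ± 0.18), a lysosomal glycoprotein, and *Grn* (-0.13 ± 0.15), the progranulin gene, did not pass. With the block, *Gpnmb* passed as lower in the fit without the sgRNA control of replicate 5. *Grn* did so in the fits without replicate 5 or without its stimulated empty vector library.

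**Figure D3:**
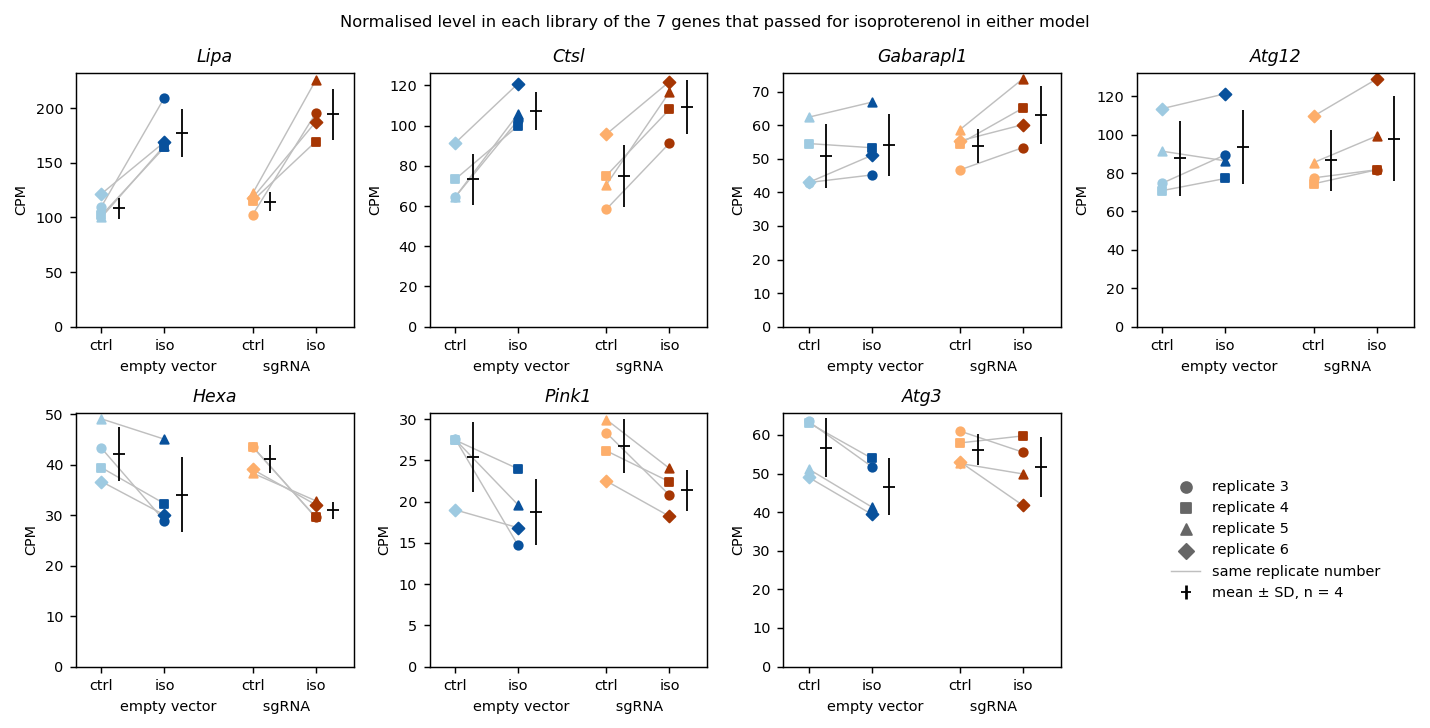
Level in CPM (vertical axis, from 0) of the 7 genes that passed for isoproterenol in either model, in the 4 groups along the horizontal axis (ctrl and iso, empty vector and sgRNA), with symbols for the replicate number and grey lines joining the same number. Black marks give the mean and SD of 4 libraries, and of these 7 genes only Lipa has all 8 stimulated libraries above all 8 controls. Separation of this kind was not counted over all genes.

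None of the 5 initiation genes passed in either model, and the estimates of all 5 were below 0, between -0.17 and -0.01. *Ulk1* encodes the kinase that starts autophagy under nutrient shortage. *Ulk1* with the empty vector was at 14.3, 22.9, 30.5 and 19.5 CPM in the controls and at 16.5, 16.3, 30.4 and 18.2 CPM after isoproterenol. *Ulk1* with the sgRNA plasmids was at 21.2, 21.7, 22.5 and 20.1 CPM in the controls and at 18.5, 14.5, 19.5 and 19.8 CPM after isoproterenol. With the sgRNA plasmids all 4 stimulated libraries (14.5 to 19.8 CPM) lay below all 4 controls (20.1 to 22.5 CPM), whereas with the empty vector the groups overlapped and both libraries of replicate 5 (30.5 and 30.4 CPM) were the highest. The difference was -0.17 ± 0.15 (95% interval -0.50 to 0.15, adjusted p = 0.627). Its paralog *Ulk2* was at -0.01 ± 0.08, the ULK partner *Atg13* at -0.12 ± 0.07, and *Becn1*, the Beclin gene, at -0.09 ± 0.07. *Atg14*, which directs the lipid kinase to the site of membrane formation, was at -0.14 ± 0.08, the most negative of the 5 after *Ulk1*.

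Among the 9 genes of membrane supply and conjugation none passed without the block, and *Atg3* and *Atg12* passed with it, in opposite directions. *Atg3* is the E2-like enzyme that hands Atg8 proteins to phosphatidylethanolamine. *Atg3* with the empty vector was at 63.5, 63.1, 51.2 and 49.0 CPM in the controls and at 51.8, 54.0, 41.4 and 39.4 CPM after isoproterenol. *Atg3* with the sgRNA plasmids was at 61.0, 57.9, 52.6 and 53.0 CPM in the controls and at 55.5, 59.8, 49.9 and 41.7 CPM after isoproterenol. Replicates 3 and 4 were above replicates 5 and 6 in each of the 4 groups, and in 7 of 8 pairs the stimulated library was the lower one, the exception being replicate 4 with the sgRNA plasmids. The difference was -0.20 ± 0.09 with an adjusted p of 0.281, and -0.21 ± 0.05 with an adjusted p of 0.00597 once the replicate number was in the model.

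*Atg12* is the ubiquitin-like protein that is joined to Atg5. *Atg12* with the empty vector was at 74.7, 70.9, 91.4 and 114 CPM in the controls and at 89.5, 77.2, 86.4 and 121 CPM after isoproterenol. *Atg12* with the sgRNA plasmids was at 77.5, 74.4, 85.5 and 109.7 CPM in the controls and at 81.7, 81.7, 99.3 and 129 CPM after isoproterenol. Replicate 6 was the highest in every group, and the replicate number took 0.886 of the variance of its log2 level. In 7 of 8 pairs the stimulated library was higher, except for replicate 5 with the empty vector. The difference was 0.14 ± 0.13 without the block (adjusted p = 0.672) and 0.13 ± 0.04 with it (adjusted p = 0.0382), and the second call held in 5 of the 20 fits that left out a library or a number. The other 7 genes lay between -0.15 (*Atg9a*, the lipid scramblase that brings membrane) and 0.07 (*Atg5*), with *Atg7*, the E1-like enzyme of both reactions, at -0.01 ± 0.12, *Atg4b*, the protease that trims Atg8 proteins, at -0.05 ± 0.06, and *Atg16l1* at 0.02 ± 0.06. The phosphoinositide readers *Wipi1* and *Wipi2* were at -0.08 ± 0.10 and 0.0006 ± 0.07.

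The Atg8 family supplies the proteins that are coupled to the growing membrane. *Gabarapl1* alone of its 5 genes passed, and only with the block. *Gabarapl1* with the empty vector was at 42.97, 54.6, 62.5 and 42.99 CPM in the controls and at 45.2, 53.3, 66.9 and 51.1 CPM after isoproterenol. *Gabarapl1* with the sgRNA plasmids was at 46.7, 54.6, 58.8 and 55.4 CPM in the controls and at 53.4, 65.2, 73.9 and 60.2 CPM after isoproterenol. The groups overlapped, while 7 of 8 pairs were higher after isoproterenol, the exception being replicate 4 with the empty vector. The difference was 0.16 ± 0.10 without the block (adjusted p = 0.454) and 0.16 ± 0.05 with it (adjusted p = 0.0327), and the second call held in 5 of the 20 fits that left out a library or a number.

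*Map1lc3b* encodes LC3B, whose lipid-bound form is the usual marker of autophagosomes. *Map1lc3b* with the empty vector was at 147, 131, 139 and 129.9 CPM in the controls and at 167, 129.5, 108 and 120.4 CPM after isoproterenol. *Map1lc3b* with the sgRNA plasmids was at 140.2, 133, 131 and 145 CPM in the controls and at 145, 144, 117 and 141 CPM after isoproterenol. The groups overlapped, and 167 CPM and 108 CPM, the extremes of all libraries, both belonged to the stimulated group of the empty vector. The difference was -0.03 ± 0.08 (95% interval -0.21 to 0.14, adjusted p = 0.898), and its sign turned when replicate 5 was left out. *Gabarap* was at 0.10 ± 0.07, *Gabarapl2* at 0.08 ± 0.09 and *Map1lc3a* at -0.04 ± 0.14. Values of these related genes rest on how reads that match several transcripts were divided between them.

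None of the 3 cargo receptors passed. *Sqstm1* encodes p62, which links ubiquitinated cargo to Atg8 proteins. *Sqstm1* with the empty vector was at 329, 321, 283 and 176 CPM in the controls and at 257, 335, 316 and 193 CPM after isoproterenol. *Sqstm1* with the sgRNA plasmids was at 328, 347, 232 and 213 CPM in the controls and at 314, 348, 242 and 217 CPM after isoproterenol. Replicates 5 and 6 were below replicates 3 and 4 with the sgRNA plasmids, and replicate 6 was the lowest in every group. The difference by treatment was -0.0048 ± 0.16 (95% interval -0.35 to 0.34), or 0.0048 ± 0.08 with the block (95% interval -0.16 to 0.17), whereas the replicate number took 0.826 of the variance of its log2 level. *Nbr1* was at 0.07 ± 0.06 and *Optn*, the optineurin gene, at 0.13 ± 0.09.

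Of the 4 mitophagy genes, *Pink1*, the kinase that marks depolarised mitochondria, fell with the block. *Pink1* with the empty vector was at 27.6, 27.5, 27.5 and 19.0 CPM in the controls and at 14.7, 24.0, 19.6 and 16.8 CPM after isoproterenol. *Pink1* with the sgRNA plasmids was at 28.3, 26.2, 29.9 and 22.5 CPM in the controls and at 20.8, 22.4, 24.0 and 18.2 CPM after isoproterenol. Each stimulated library was below its own control, and the groups overlapped, with low controls of replicate 6 for the empty vector (19.0 CPM) and the sgRNA plasmids (22.5 CPM). The difference was -0.38 ± 0.11 (adjusted p = 0.0695; 0.00238 with the block), in 8 of 8 pairs. With the block the call held in all 20 fits that left out a library or a number, and without it *Pink1* passed in 2 of 16 fits that left out a library, those without the empty vector control of replicate 6 or the empty vector stimulated library of replicate 4. *Bnip3* was lower in 8 of 8 pairs as well, yet ranged 4.62-fold over all libraries, from 181 to 836 CPM, and did not pass in either model (-0.25 ± 0.25, adjusted p = 0.676; 0.209 with the block). The low end came from replicate 5 with the empty vector, at 316 and 181 CPM, in the libraries with the highest ribosomal RNA share, and without replicate 5 *Bnip3* and *Grn* passed in the blocked model. *Bnip3l* (0.01 ± 0.11) and *Fundc1* (0.07 ± 0.11), further receptors of mitochondria, did not pass.

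None of the 3 MiT/TFE factors passed, and all 3 estimates were below 0. *Tfeb* is the factor most closely tied to lysosomal gene expression. *Tfeb* with the empty vector was at 9.09, 9.13, 10.8 and 7.17 CPM in the controls and at 3.99, 8.58, 9.54 and 5.55 CPM after isoproterenol. *Tfeb* with the sgRNA plasmids was at 8.26, 7.83, 12.9 and 8.89 CPM in the controls and at 9.77, 7.70, 9.93 and 7.20 CPM after isoproterenol. The groups overlapped, and the stimulated empty vector library of replicate 3 (3.99 CPM) was the lowest. The difference was -0.25 ± 0.17 (95% interval -0.61 to 0.10, adjusted p = 0.484), and 0.166 with the block. *Tfe3* was at -0.09 ± 0.08 and *Mitf* at -0.07 ± 0.21, the latter from 21 to 102 counts per library, which left an interval of -0.51 to 0.37.

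The lysosomal membrane genes did not pass either. *Lamp1*, with 4184 to 9234 counts per library, gave one of the more precise estimates. *Lamp1* with the empty vector was at 556, 529, 543 and 474 CPM in the controls and at 581, 504, 591 and 461 CPM after isoproterenol. *Lamp1* with the sgRNA plasmids was at 505, 498, 416 and 455 CPM in the controls and at 514, 474, 475 and 477 CPM after isoproterenol. The groups overlapped, and 5 of 8 pairs were higher. The difference was 0.04 ± 0.07 (95% interval -0.12 to 0.19, adjusted p = 0.858). *Lamp2* was at 0.08 ± 0.06, and *Mcoln1*, a calcium channel of the lysosome, at -0.04 ± 0.09. Of the 4 genes with the palindrome TCACGTGA, *Atg3* alone passed, as a fall and with the block only, while *Ctsa*, *Ctsd* and *Mcoln1* lay between -0.06 and 0.18.

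A further 131 genes of the same pathways were examined as lists, of which 123 were tested. Without the block 1 rose and 2 fell (2.44%), and with it 10 rose and 15 fell (20.3%), shares to be read against 4.49% and 21.3% of all genes. Of 33 other autophagy genes tested, *Vmp1*, which remodels membrane at contact sites, rose in both models (0.34 ± 0.08, adjusted p = 0.0173), and with the block 4 fell, among them *Calcoco1* (-0.46 ± 0.10) and *Plekhm1* (-0.28 ± 0.08). Of 16 subunits of the proton pump, *Atp6v0d1* fell (-0.25 ± 0.06, adjusted p = 0.0347) and *Atp6v1c1* rose with the block (0.14 ± 0.04). Of 32 further lysosomal enzymes, the phospholipase *Pla2g15* fell (-0.35 ± 0.08, adjusted p = 0.0290), and with the block 2 rose and 4 fell, including *Arsb* (-0.43 ± 0.07) and *Fuca1* (-0.32 ± 0.08). Of 16 other membrane genes, *Cln3* rose with the block by 0.96 ± 0.16 at a level of 1.04 to 6.28 CPM, and *Sort1* (-0.50 ± 0.11) and *Tmem192* (-0.19 ± 0.06) fell. Of 26 genes of mTORC1 and nutrient sensing, 4 rose and 4 fell with the block and none passed without it, and those with the largest changes were *Akt1s1* (-0.39 ± 0.11), *Lamtor2* (-0.40 ± 0.11) and *Ddit4* (0.33 ± 0.11).

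Some markers of cell identity moved with the treatment. The 10 macrophage markers summed to 9.13 to 17.7 CPM in the controls and 17.8 to 28.2 CPM after isoproterenol. Of these, 8 were below 0.5 CPM on average, with a sum of 0.374 to 1.30 CPM in the controls and 0.505 to 2.71 CPM after isoproterenol, and the defining marker *Adgre1* was at 0 in all libraries of 3 groups. The remaining pair, *Cd68*, itself a lysosomal membrane protein, and *Cd14*, rose by 0.91 ± 0.17 and 0.82 ± 0.15 with isoproterenol (adjusted p = 0.00518 and 0.00384). *Cd68* was at 10.6 ± 2.63 and 18.8 ± 3.56 CPM without and with isoproterenol in the empty vector groups. Of 8 adipocyte markers 3 fell without the block and 6 with it, led by *Adipoq* (-1.06 ± 0.18, adjusted p = 0.00222), and their summed level averaged 23568 and 18028 CPM in the empty vector groups and 23660 and 19912 CPM in the sgRNA groups. Of 8 preadipocyte markers 4 were tested, and *Ly6a* rose with the block, while the whole list summed to 8.53 to 73.7 CPM in the controls and 16.3 to 94.8 CPM after isoproterenol. Of 7 brown adipocyte markers 6 were tested. *Ucp1* and *Ppargc1a* rose in both models and *Cidea* and *Elovl3* with the block only, while the lowest estimate was -0.21. The list summed to 195 to 423 CPM in the controls and 250 to 569 CPM after isoproterenol. For the sgRNA plasmids, *Cidea* passed as higher and *Ly6a* as lower, with the block only. The part of these shifts, or of the ribosomal RNA share, in the changes of *Lipa*, *Ctsl*, *Hexa* and *Pink1* was not tested.

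The isoproterenol response was next compared between the plasmids. Over the 41 genes, the log2 fold changes with the empty vector and with the sgRNA plasmids had Pearson's r = 0.87 and Spearman's rho = 0.79, across genes that are not independent replicates and in libraries that share replicate numbers, and r was 0.73 over the 39 genes without *Lipa* and *Ctsl*. All 13150 genes gave r = 0.53 and rho = 0.63. The sign was the same for 34 of 41 genes, and this was not counted over all genes. The difference between the 2 responses, the interaction, passed for none of the 41 genes with or without the block (0.0% of all genes in both). At an unadjusted p under 0.05 there were 0 of the 41 genes in either model. Over all genes this share was 0.395% without and 1.51% with the block. DESeq2 called 0 of the 41 and 0 of all genes. The interval of the difference lay within ±0.5 for 22 of the 41 genes without the block (53.7%, all genes 29.4%) and for 34 with it (82.9%, all genes 54.8%). For *Lipa* it was -0.24 to 0.34 with the block, for *Ctsl* -0.24 to 0.24 and for *Hexa* -0.41 to 0.22.

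**Figure D4:**
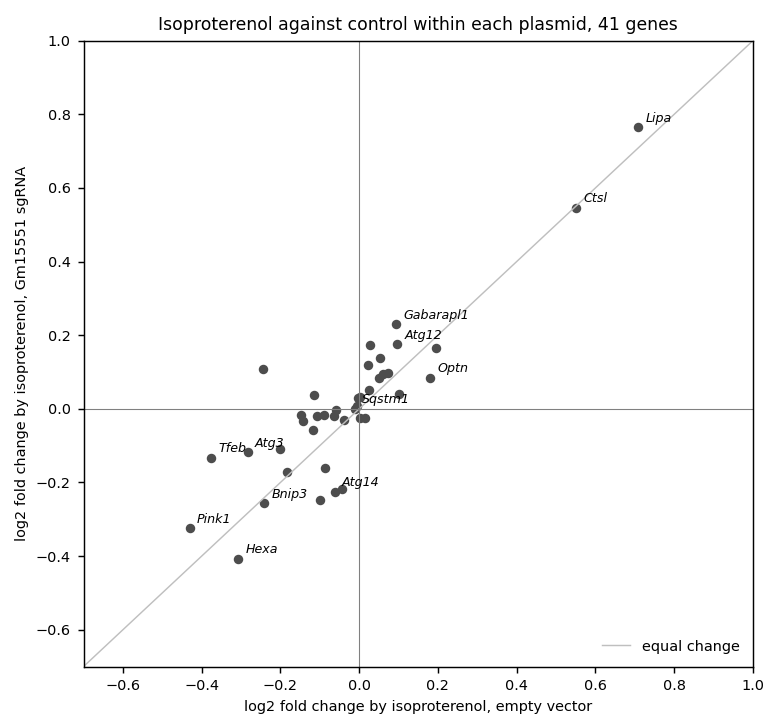
Log2 fold change by isoproterenol with the empty vector (horizontal axis) and with the sgRNA plasmids (vertical axis) for the 41 genes, in the model of 4 group means, with a line of equal change. Lipa and Ctsl lie near the line at the upper right, and 34 of the 41 genes have the same sign on both axes.

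The lowest unadjusted p for this difference belonged to *Atg14* and *Atg3*. *Atg14* with the empty vector was at 12.2, 11.4, 11.7 and 11.6 CPM in the controls and at 11.5, 12.3, 9.16 and 11.9 CPM after isoproterenol. *Atg14* with the sgRNA plasmids was at 14.4, 14.4, 12.4 and 11.1 CPM in the controls and at 11.6, 11.6, 10.5 and 11.02 CPM after isoproterenol. With the sgRNA plasmids the stimulated library was the lower one in 4 of 4 pairs, and with the empty vector in 2 of 4. The interaction of *Atg14* was -0.16 ± 0.16 (unadjusted p = 0.335, adjusted p = 1.000). For *Atg3*, whose library values are given above, it was 0.17 ± 0.19 (adjusted p = 1.000), from a response of -0.28 with the empty vector and -0.12 with the sgRNA plasmids. *Mitf* had the widest difference between the plasmids, 0.35 on the log2 scale, at the lowest level of the genes tested.

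None of the 41 genes passed for the sgRNA plasmids against *Gm15551* in either model. Averaged over both treatments, 0 of 41 passed without the block (0.0% of all genes) and 0 of 41 with it (0.586% of all genes, 77 genes), and DESeq2 called 0 of the 41 and 13 of all genes. At an unadjusted p under 0.05 there were 1 of 41 genes without and 5 with the block, against 437 and 1506 of 13150. The median log2 fold change was -0.01, with a range of -0.18 (*Ctsa*) to 0.24 (*Optn*). The 95% interval lay within ±0.5 for 39 of the 41 genes (67.1% of all genes), and for 40 with the block (77.0% of all genes).

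**Figure D5:**
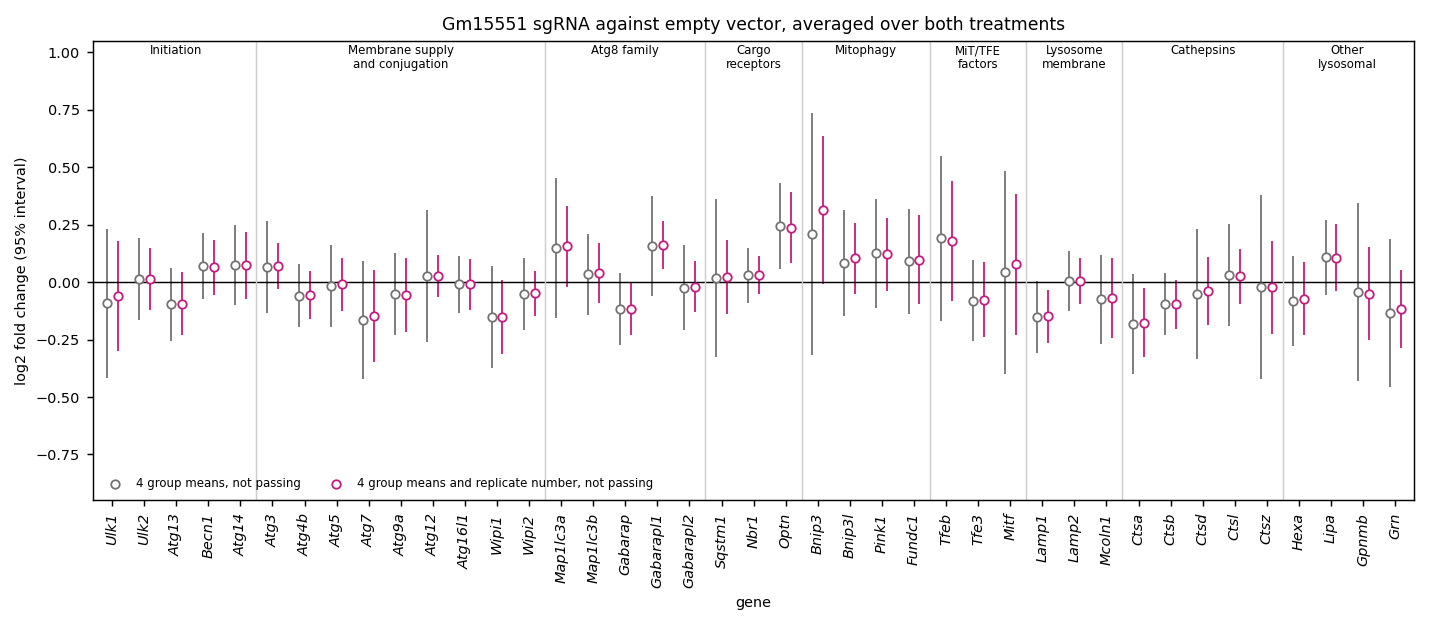
Log2 fold change by the sgRNA plasmids against the empty vector (vertical axis) of the 41 genes (horizontal axis, by role), with 95% intervals, in the model of 4 group means (grey) and in the one that adds the replicate number (pink). All points are open, since none passed at an adjusted p under 0.05.

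The 4 genes with the lowest unadjusted p without the block were *Optn*, *Lamp1*, *Ctsa* and *Gabarap*. *Optn* with the empty vector was at 29.4, 30.8, 23.8 and 25.9 CPM in the controls and at 24.6, 34.2, 34.7 and 31.0 CPM after isoproterenol. *Optn* with the sgRNA plasmids was at 30.6, 33.2, 35.0 and 35.9 CPM in the controls and at 31.8, 38.9, 40.4 and 31.7 CPM after isoproterenol. *Optn*, a receptor for ubiquitinated mitochondria and bacteria, was higher with the sgRNA plasmids in 8 of 8 pairs, though the groups overlapped. The difference was 0.24 ± 0.09 (unadjusted p = 0.0140), which did not pass after adjustment (adjusted p = 1.000; 0.204 with the block). Its exons overlap an antisense gene. *Gabarapl1*, whose values are given above, had the lowest unadjusted p with the block (0.16 ± 0.05, adjusted p = 0.203). *Lamp1* was lower in 7 of 8 pairs, with a log2 difference of -0.15 ± 0.07, with group means of 525 ± 36.1 and 468 ± 41.5 CPM in the controls (SD, n = 4) and an adjusted p of 0.301 with the block.

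*Ctsa* with the empty vector was at 92.6, 91.3, 105 and 105 CPM in the controls and at 87.0, 99.6, 150.3 and 114 CPM after isoproterenol. *Ctsa* with the sgRNA plasmids was at 81.6, 90.5, 82.9 and 95.4 CPM in the controls and at 82.3, 89.5, 107 and 115 CPM after isoproterenol. The stimulated empty vector library of replicate 5 stood above the others at 150.3 CPM. *Ctsa* was lower with the sgRNA plasmids in 7 of 8 pairs, with a log2 difference of -0.18 ± 0.10 (adjusted p = 0.352 with the block). *Gabarap* with the empty vector was at 162, 159.9, 165 and 152 CPM in the controls and at 192, 170.0, 148 and 152 CPM after isoproterenol. *Gabarap* with the sgRNA plasmids was at 149.6, 147, 121 and 154 CPM in the controls and at 168, 166, 136 and 159 CPM after isoproterenol. *Gabarap* was lower in 6 of 8 pairs, with a log2 difference of -0.12 ± 0.07 (adjusted p = 0.410 with the block), and its groups overlapped. Of the genes that responded to isoproterenol, *Lipa* differed between the plasmids by 0.11 ± 0.08, *Ctsl* by 0.03 ± 0.10 and *Hexa* by -0.08 ± 0.09. The other 123 pathway genes tested gave 0 calls in both models, against 0 and 77 of all 13150 genes without and with the block. At an unadjusted p under 0.05 there were 6 and 16 of the 123, against 437 and 1506 of all genes. Without replicate 5, whose empty vector libraries had 47.3 and 51.8% of counts in the ribosomal RNA gene, the difference was -0.09 for *Ctsa*, -0.08 for *Lamp1*, -0.06 for *Gabarap* and 0.20 for *Optn*. The part of the ribosomal RNA share in these differences was not tested.

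For most of the 41 genes the replicate number accounted for more of the variance of the log2 level than the treatment did. The replicate number has more levels than the treatment or the plasmid, which by itself raises its share. Its median share was 0.453, against 0.065 for isoproterenol and 0.0353 for the sgRNA plasmids, and the medians over all genes were 0.468, 0.0679 and 0.0238. It exceeded 0.5 in 17 of the 41 genes (41.5%), against 45.5% of all genes, while isoproterenol exceeded 0.5 in *Lipa*, *Ctsl* (0.686) and *Hexa* (0.551) only. The highest shares of the replicate number were those of *Atg12*, *Sqstm1* and *Ctsd* (0.755), followed by *Ctsz* (0.739) and *Wipi2* (0.726). By role, its median was 0.621 in the Atg8 family and 0.270 in the lysosomal membrane genes. The SD of the log2 level over the 16 libraries had a median of 0.213 in the 41 genes, and 29 of them were below the median of all genes, 0.270. *Atg16l1* (0.0792), *Lamp2* (0.0894) and *Nbr1* (0.0911) varied least, and *Bnip3* (0.584), *Mitf* (0.405) and *Lipa* (0.404) most.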

How the data were processed

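RNA-seq of polyadenylated RNA from 16 libraries (4 groups of 4) was taken from the deposited table. Per the labels and the study's methods, the authors demultiplexed with bcl2fastq, trimmed with cutadapt and quantified with Salmon against GENCODE M22 (GRCm38), so the deposited values are estimated counts per gene, not normalized. Tool versions and the use of strand are not given in the sources used here. The members and the lists were chosen with earlier results of these data known.

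Counts were rounded and filtered (filterByExpr, minimum count 10, minimum total 15), which left 13150 genes. They were scaled by TMM and fitted with the quasi-likelihood test of edgeR 4.0.16 (limma 3.58.1, R 4.3.3) to 4 group means, with Benjamini-Hochberg adjustment over all genes and a threshold of 0.05. A second model added the replicate number as a block. Whether the numbers pair the libraries was checked from the deviations from the group means: the correlation was above 0.1 for all 24 same-number pairs (median 0.410), against a median of -0.21 over 72 pairs with different numbers. The latter ran from -0.51 to 0.516. Where same-number libraries deviate together, taking deviations from group means itself lowers the correlation between different numbers. SE was the absolute log2 fold change over the square root of F. The median biological coefficient of variation was 18.0% without and 9.96% with the block. DESeq2 1.42.0 was an alternative.

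On simulated counts of 12971 genes for the averaged isoproterenol comparison, the model without the block recovered 92% of genes changed by 1 on the log2 scale and 64% of those changed by 0.5, with 0 false calls, and the model with it 97% and 81%, with 9 false calls (4.81% of its calls). The simulation gave all genes the same spread, set below the median of the data without the block (18.0%). The recovery without the block may therefore be too high for these data.

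Values in every library were given for members that passed for isoproterenol in either model, the members with the lowest unadjusted p for the sgRNA plasmids and for the interaction, and a set of reference genes (*Ulk1*, *Map1lc3b*, *Sqstm1*, *Tfeb*, *Lamp1*). *Bnip3* was described after its values were seen. Of the other pathway lists, up to 3 passing genes with the largest isoproterenol change were named. Exon lengths came from GENCODE M21 gene models, and promoters from RefSeq (GRCm38.p6).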

Additional observations from a re-analysis of the deposited data

Results flagged for a closer look

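In 9 of 164 groups of 4 libraries, counting each of the 41 genes in each group, 1 library stood apart from the other 3 by Dixon's criterion, where chance gives about 1 in 20 groups. The empty vector control of replicate 6 was the lowest library of its group for *Atg13* (26.2 CPM, the others 32.3 to 32.6), *Pink1* (19.0 CPM, the others 27.5 to 27.6), *Mcoln1* (27.6 CPM, the others 34.3 to 35.6) and *Ctsd* (269.9 CPM, the others 404 to 414). Among stimulated empty vector libraries, replicate 3 was low for *Wipi1* (11.1 CPM, the others 15.6 to 16.8) and high for *Lipa* (209.9 CPM, the others 164 to 169), and replicate 4 was high for *Ctsz* (126 CPM, the others 74.2 to 80.4). Among stimulated sgRNA libraries, replicate 5 was low for *Map1lc3b* (117 CPM, the others 141 to 145) and replicate 3 was high for *Lamp1* (514 CPM, the others 474 to 477).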

How the results depend on the processing

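For isoproterenol, 2 members passed as higher and 1 as lower without the block. The counts were 4 and 3 with the replicate block, 2 and 2 with DESeq2, which added *Pink1*, and 2 and 0 when a log2 change over 0.5 was also required. Leaving out 1 library gave 2 higher and 0 to 2 lower, and leaving out a replicate number gave 1 to 2 higher and 0 to 1 lower, with *Lipa* alone passing without replicate 4, and *Lipa* and *Hexa* without replicate 5. Over all genes, leaving out 1 library gave 173 to 392 higher and 195 to 472 lower. Without replicate 3, 4, 5 or 6, all genes gave 80, 97, 208 and 223 higher and 57, 100, 272 and 245 lower. The replicate block with the same omissions, chosen after seeing the data, gave 2 to 4 higher (4 without the empty vector control of replicate 5) and 3 to 5 lower (5 without replicate 5), and *Lipa*, *Ctsl*, *Hexa*, *Pink1* and *Atg3* passed in all 20 of these fits. *Lipa* passed under every alternative, between 0.67 and 0.79. For the sgRNA plasmids and for the interaction, 0 members passed under every alternative, the block included. Over all genes, 77 passed for the sgRNA plasmids and 0 for the interaction with the block.

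Among the results named for the isoproterenol, sgRNA and interaction comparisons, the sign of 3 estimates close to 0 turned, and none of them passed in any fit. Over all 41 genes the interaction also changed sign between the models for *Bnip3* (-0.02 and 0.03 with the block), *Ctsl* (-0.0044 and 0.0028) and *Sqstm1* (0.01 and -4.51e-05). *Map1lc3b* ran from -0.0996 to 0.0363 when libraries or numbers were left out, with 0.0085 without the stimulated empty vector library of replicate 5, and was at 0.0329 without replicate 5 with the block. *Sqstm1* was at 0.0048 with the replicate block, at 0.0025 without the ribosomal RNA gene, and between -0.0880 and 0.0703 when libraries or numbers were left out. In the 20 blocked fits with an omission *Sqstm1* ran from -0.0575 to 0.0738 (without replicate 3), with 9 below 0 and 11 above. Those above 0 that left out a single library were 0.0302, 0.0553, 0.0227 and 0.000869 for those of replicate 3, 0.00516 and 0.00875 for the stimulated empty vector and the control sgRNA library of replicate 4, 0.0261 and 0.0325 for the control empty vector and the stimulated sgRNA library of replicate 5, and 0.00880 and 0.0204 for the stimulated empty vector and the control sgRNA library of replicate 6. *Lamp1* ran from -0.0026 (without replicate 5) to 0.0721, and with the block was at -0.0034 without it and -0.0045 without the sgRNA control of replicate 5. The cause was not tested. The 95% interval of the interaction reached past ±0.5 for 19 of the 41 genes without and for 7 with the block, so for these genes the data do not bound the difference between plasmids to ±0.5.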
